A study of Mus musculus with 16 samples.

Results

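Neurons that carried 1 hairpin RNA against Nup153 (shNup153-2) were compared with neurons that carried another hairpin against the same gene (shNup153-1), both in unstimulated mouse primary cortical cultures. The libraries were chosen by their labels: 2 basal libraries with shNup153-2 (replicates 1 and 2) and 2 with shNup153-1 (replicates 1 and 2), 4 of the 16 samples of the series. The labels list 3 basal libraries for each hairpin, and the third of each is not analysed here, since 2 columns of the table share a name and could not be matched to them. The series measures poly(A) RNA after knockdown of Nup153, with 4 basal libraries of a control hairpin (shControl), and with silenced cultures (tetrodotoxin, which blocks action potentials, and D-AP5, which blocks NMDA receptors) of 3 shControl and 3 shNup153-2 libraries. All groups come from C57/BL6 embryos of embryonic day 17.5 to 19.5, with the cortices of 1 litter pooled into 1 replicate, and all received adeno-associated virus (AAV) with a hairpin from day 8 to day 13 in vitro. Cultures with a knockdown were sequenced only where Nup153 had fallen far enough, per the labels. The sources used here do not state which cells the virus reached, or the promoter and sequences of the hairpins.

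Nup153 is a nucleoporin of the nuclear basket, the filaments on the chromatin side of the nuclear pore, and takes part in transport and in anchoring chromatin regulators. A hairpin RNA is processed like a microRNA, and its guide strand can also lower other transcripts that pair with only its first bases (the seed), mostly through their 3′ untranslated regions (3′ UTRs). A pair of hairpins against 1 gene shares the intended target and can differ in such side targets. Cortical cultures also hold glia that grow beside the neurons, among them oligodendrocyte precursors, which express Pdgfra and pass through a committed stage marked by Gpr17, Bcas1 and Enpp6 before they make myelin.

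Gene lines 1 to 16399 of the basal table were used, since the shNup153-1 columns are displaced against the gene names below them, and 14529 genes passed the filter on low counts. Among the labelled cell type's own genes, the 24 markers of excitatory neurons and cortical layers were detected in every library, with sums of 1687 and 2516 CPM (counts scaled to the library total) with shNup153-1, 3281 and 3085 with shNup153-2 and 3091 to 4243 with shControl. The hairpin libraries held 26863535 to 44044312 counts. Of the 2 shNup153-1 libraries, replicate 1 lay farther from shNup153-2. The standard deviation of log2 differences across genes was 0.708 between the 2 shNup153-1 libraries and 0.406 between the 2 shNup153-2 libraries. Replicate 1 of shNup153-1 differed from the shNup153-2 libraries by 1.07 and 1.03, and replicate 2 by 0.75 and 0.697. Pairs of shControl libraries differed by 0.466 to 0.899, and shControl replicate 2 differed from the shNup153-2 libraries by 1.13 and 1.14. Results are also given without shNup153-1 replicate 1.

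Nup153 CPM were 17.2 and 28.4 with shNup153-1 and 13.6 and 11.7 with shNup153-2, against 97.4, 54, 80.6 and 58.6 in the shControl libraries. All hairpin libraries lay below all shControl libraries, and the libraries of both hairpins did not overlap. Cultures were sequenced only where Nup153 had fallen far enough, so their place below shControl is no independent result. The log2 fold change of shNup153-2 over shNup153-1 was -0.85 ± 0.34 (SE, n = 2 against 2) and did not pass the test (edgeR, BH-adjusted p = 0.164). Hdac1, the histone deacetylase that the series' title links to Nup153, measured 11 and 11.1 CPM with shNup153-1 and 9.89 and 9.98 with shNup153-2 (log2 fold change -0.15 ± 0.22, BH-adjusted p = 0.678).

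Between the hairpins, 651 of 14529 genes (4.48%) were called at a BH-adjusted p under 0.05 in edgeR, 408 of them higher with shNup153-2 (2.81%) and 243 lower (1.67%). At an unadjusted p under 0.05 in edgeR, 1998 of the 14529 genes were higher and 1749 lower. DESeq2 called 1171 higher and 943 lower. The counts given below for gene lists are to be read beside these. The libraries of both hairpins did not overlap in 4751 genes that were higher with shNup153-2 (32.7%) and in 4440 that were lower (30.6%), so that separation by itself is common in a comparison of 2 with 2. The shControl mean lay between the hairpins in 279 of the 408 higher genes and 172 of the 243 lower ones. It lay nearer to shNup153-2 in 259 of the higher genes (63.5%) and nearer to shNup153-1 in 137 of the lower ones (56.4%). Among genes not called it lay between the hairpins in 34.6%, nearer to shNup153-2 in 46.1% and nearer to shNup153-1 in 53.9%, so the 56.4% of the lower genes is close to that background. The log2 fold change was positive in 7321 of the 14529 genes. The calls rest on few libraries: without shNup153-1 replicate 1, 4 genes were called (Tm9sf3 higher, and Grsf1, Syt5 and Enpp6 lower), without its replicate 2, 500, and without either shNup153-2 library none, with 1868 and 2293 genes at an unadjusted p under 0.05. The called genes chosen by the rule for naming, and those of smallest p that hold the sequences described last, kept their sign in each alternative fit. Their hairpin libraries did not overlap, so leaving a library out could hardly change the sign. The kept sign is therefore no support for these calls. The sources used here do not state whether counting used strand, and exons of some named genes overlap exons of the other strand (Dhh over 25.2% of its exon length, Ccne2 17.4%, Syt4 14.5%, Bcas1 12.6%), so reads of the partners cannot be told apart there.

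**Figure D1:**
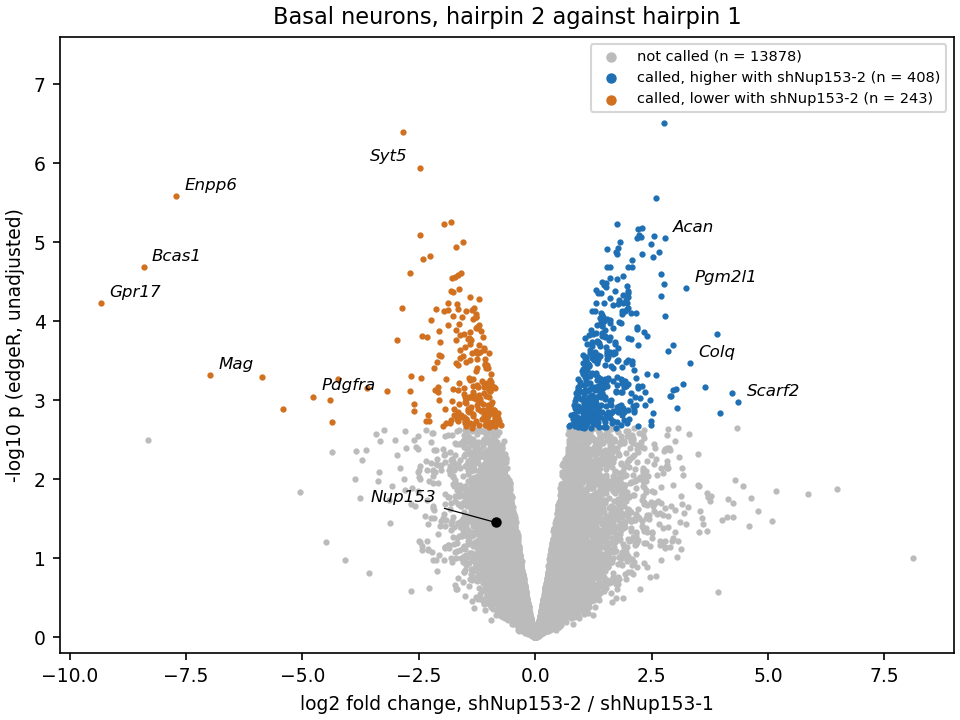
Each point is 1 of the 14529 genes tested, by its log2 fold change of shNup153-2 over shNup153-1 (x axis) and its unadjusted edgeR p as -log10 (y axis), with the 408 genes called higher in blue, the 243 called lower in orange and Nup153 as a black dot. The lower genes with the largest differences are Gpr17, Bcas1, Enpp6 and Mag, genes of the oligodendrocyte lineage.

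Transcripts of the oligodendrocyte lineage held 6 of the 12 largest falls by the lists used, and were at or near 0 in the shNup153-2 and shControl libraries for several of them. Gpr17, a receptor of committed precursors (GRCm38, chr18:31942997-31949636), measured 25.3 and 11.2 CPM with shNup153-1, against 0.0467 and 0 with shNup153-2. These are 668 and 359 counts against 2 and 0, a ratio of 705 (95% exact interval 195 to 5829, for counting error only). The shControl libraries held 0, 0, 0 and 0.16 CPM, so both shNup153-1 libraries lay above every other basal library. Bcas1, a marker of newly forming oligodendrocytes, measured 30 and 15.1 CPM against 0.0467 and 0.0803, and 0 to 0.352 with shControl (log2 fold change -8.41 ± 1.015, BH-adjusted p = 0.00863). Enpp6, a choline phosphodiesterase of the same stage, had 215 and 123 counts against 1 and 1, a ratio of 232 (95% exact interval 63.7 to 1924). It was among the 4 genes still called without shNup153-1 replicate 1 (BH-adjusted p = 0.05).

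Pdgfra, the growth factor receptor of oligodendrocyte precursors, measured 107 and 41.2 CPM with shNup153-1 and 3.64 and 1.77 with shNup153-2, with 1.06 to 7.55 in the shControl libraries (log2 fold change -4.77 ± 0.97, BH-adjusted p = 0.0343). Sox10, the transcription factor that defines the lineage, measured 27.1 and 7.14 CPM against 0.0233 and 0.0803 and missed the threshold (BH-adjusted p = 0.0578). Both genes were higher in each shNup153-1 library than in any other basal library. Olig1 and Olig2, which precursors share with other progenitors, measured 371 and 509 and 97.4 and 85.8 CPM with shNup153-1. With shNup153-2 they measured 132 and 233 and 35.6 and 48.1, and neither passed the test (BH-adjusted p = 0.161 and 0.13). Of 14 tested precursor markers, 2 were called lower and none higher, beside 1.67% and 2.81% of all genes. Their median log2 fold change was -1.2, against 0.01 over all genes tested. At an unadjusted p under 0.05, 8 were lower, beside 1749 of all 14529 genes. The log2 fold change was positive for 4 of the 14. Among these Vcan, a matrix proteoglycan that other cells also make, measured 17.6 and 23.9 CPM with shNup153-1 and 51.3 and 36.5 with shNup153-2 (BH-adjusted p = 0.211), and Vipr2, a peptide receptor, 1.1 and 1.93 against 2.24 and 3.75 (BH-adjusted p = 0.211).

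Of 21 tested markers of premyelinating and myelinating cells, 6 were called lower with shNup153-2 and none higher, beside 1.67% and 2.81% of all genes. The list's median was -0.64, and -1.03 and -1.15 without shNup153-2 replicate 1 and 2. Besides Enpp6 and Bcas1 the 6 included Mag, Myrf and Fa2h. Mag, an adhesion protein of the inner myelin layer, had 74 and 39 counts against 1 and 0, a ratio of 155 (95% exact interval 27.3 to 6181). Myrf, the transcription factor of myelin genes, measured 4.36 and 2.81 CPM against 0.513 and 0.615, and Fa2h, which makes the hydroxylated lipids of myelin, had 49 and 29 counts against 0 and 5. The list did not move as 1 block: 3 of the 21 had a positive log2 fold change, and DESeq2 called 9 lower and 1 higher. Gpr37 had 91 and 414 counts with shNup153-1 and 1071 and 804 with shNup153-2, a ratio of 2.7 on scaled totals. Mbp, a myelin protein gene that is also transcribed from a longer unit in other cells, measured 31.4 and 37.2 CPM against 34.3 and 30.2 (log2 fold change -0.09 ± 0.63), and its libraries overlapped.

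The summed level of the 24 premyelinating and myelin markers in the lines used was 430 and 392 CPM with shNup153-1 and 280 and 298 with shNup153-2 and 187 to 290 with shControl. For the 15 precursor markers the sums were 837 and 942 against 457 and 523, and 340 to 698 with shControl. In bulk RNA, fewer cells of a type and less RNA per cell cannot be told apart. The silenced cultures with shNup153-2 held Gpr17 and Pdgfra transcripts. Gpr17 measured 12.8, 13.6 and 4.95 CPM with shNup153-2 and 18.4, 0.351 and 10.4 with shControl, and Pdgfra 49.5, 77.6 and 17.5 against 69.6, 12.7 and 34.3. The silenced groups overlapped in both genes. Bcas1 measured 1.21, 5.49 and 1.3 CPM and Enpp6 0.114, 1.19 and 0.368 in silenced shNup153-2 libraries, below both basal shNup153-1 libraries. Each library is 1 litter, and litter and hairpin cannot be told apart here. Calls for the precursor list fell to 0 and for the myelin list to 1 (Enpp6) without shNup153-1 replicate 1, with medians of -1.17 and -0.87. Without its replicate 2, 2 and 6 members were called lower and 1 myelin marker higher.

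**Figure D2:**
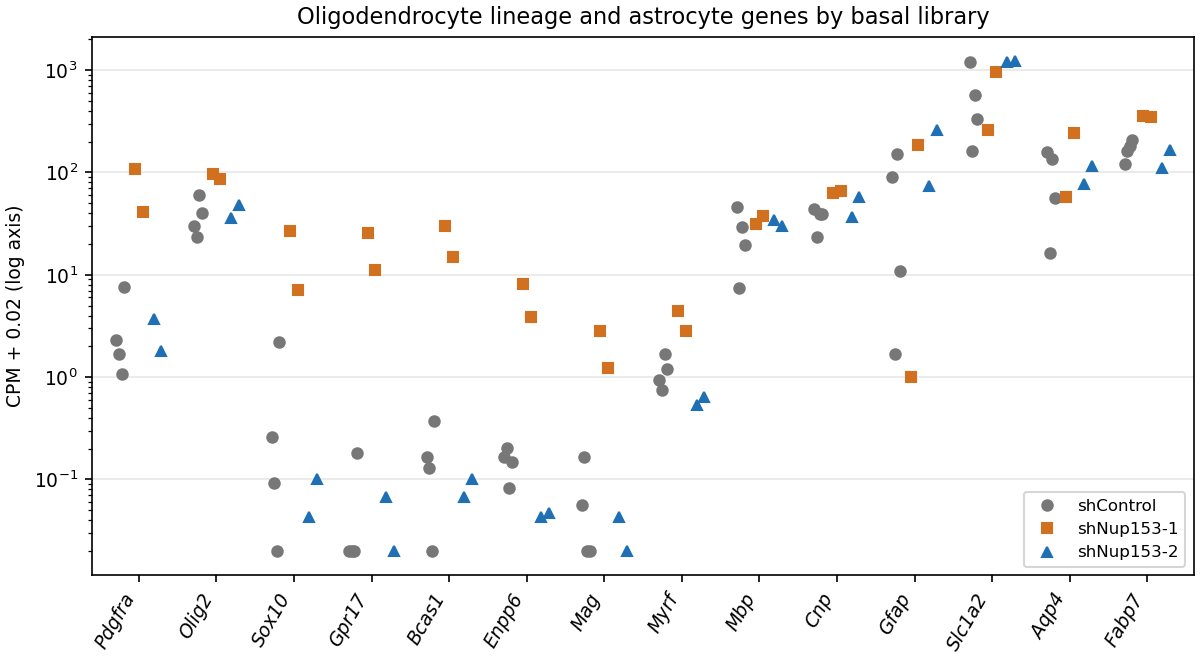
CPM plus 0.02 on a log axis for 14 glial genes in the 8 basal libraries, 1 symbol a library. Gpr17, Bcas1, Enpp6 and Mag are near the floor with shControl and shNup153-2 and above 1 CPM in both shNup153-1 libraries, while Mbp overlaps between the hairpins and Gfap spans 0.985 to 187 CPM within shNup153-1.

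Other genes among the 12 largest falls have roles in the same lineage. Zfp488, a zinc finger factor of oligodendrocytes, had 47 and 32 counts with shNup153-1 and 3 and 2 with shNup153-2. Plxnb3, a plexin of the oligodendrocyte lineage, had 68 and 63 against 3 and 1. Both were low in shControl too (0 to 0.16 and 0 to 0.192 CPM). The remaining falls are in none of the glial lists: Patl2 (111 and 20 counts against 1 and 2), Sult1a1, a sulfotransferase (5.65 and 3.15 CPM against 0.117 and 0.348), Rpe65, a retinoid isomerase (1.59 and 2.12 against 0.163 and 0.134) and Serpinb5 (6.67 and 5.21 against 0.63 and 0.669). For Sult1a1 the shControl libraries, at 0.95 to 3.3 CPM, lay nearer to shNup153-1.

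Astrocyte genes varied widely between libraries of the same hairpin. Gfap, the intermediate filament of astrocytes, measured 0.985 and 187 CPM in the 2 shNup153-1 libraries, 74.2 and 258 with shNup153-2, and 1.68 to 153 with shControl. Of 22 tested astrocyte markers 1 was called (4.55%, beside 4.48% of all genes). It was Fabp7, a fatty acid binding protein of astrocytes and radial glia, at 356 and 346 CPM against 111 and 167 (log2 fold change -1.34 ± 0.29, BH-adjusted p = 0.0421). The list's median was -0.14 with all libraries, -0.51 without shNup153-1 replicate 1 and 0.64 without its replicate 2, so its sign changed with the shNup153-1 library left out. The summed level of the list was 3094 and 6146 CPM with shNup153-1, 4383 and 5020 with shNup153-2 and 1421 to 4853 with shControl. No marker of microglia (6 tested, none at an unadjusted p under 0.05, none by DESeq2) was called. Among 12 tested vascular and fibroblast markers none was called in edgeR, 2 were called higher by DESeq2 and 3 were higher and 1 lower at an unadjusted p under 0.05. Over all 14529 genes those counts were 1171 by DESeq2, and 1998 and 1749 at an unadjusted p under 0.05. The vascular median was 1.54, against 0.01 over all genes tested, and 10 of the 12 had a positive log2 fold change, beside 7321 of 14529. It was 0.77 without shNup153-2 replicate 1 and 2.46 without shNup153-1 replicate 2. The summed vascular level was 14 and 44.9 CPM with shNup153-1 and 112 and 205 with shNup153-2, with 27.1 to 95.9 in shControl.

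Several potassium channel genes were higher with shNup153-2. Of 57 tested potassium and HCN channel genes, 9 were called higher and 1 lower (median 0.8), beside 2.81% and 1.67% of all genes, and 41 had a positive log2 fold change, beside 7321 of 14529. Kcnf1, a modifying subunit without current of its own, measured 39.2 and 50.3 CPM with shNup153-1 and 132 and 152 with shNup153-2 (log2 fold change 1.67 ± 0.25, BH-adjusted p = 0.0141). The shControl libraries, at 46 to 68.7, lay with or just above shNup153-1 and below shNup153-2. Kcna4, the A-type channel subunit Kv1.4, measured 12.9 and 17.1 CPM against 40.5 and 40.2 (1.43 ± 0.22, BH-adjusted p = 0.0157), with 15.9 to 20.8 in shControl. Kcnc2, a subunit of the fast Kv3 channels, measured 59.5 and 55.6 CPM against 137 and 112 (1.11 ± 0.18, BH-adjusted p = 0.017), above the 50.3 to 53 of shControl. In these 3 genes it was shNup153-2 that stood away from the other basal libraries. Kcng2, another modifying subunit, did the reverse: 1.71 and 2.28 CPM with shNup153-1, 6.7 and 6.98 with shNup153-2 and 5.46 to 7.39 with shControl.

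The other called channel genes were Kcnt2, Kcnv1, Kcnh1, Hcn4 and Kcnq5, with log2 fold changes of 1.67, 1.39, 2.24, 1.1 and 1.35. The 1 called lower was Kcng4, at 6.41 and 7.17 CPM against 1.56 and 1.2, with 0.155 to 0.621 in shControl, below every hairpin library. Without shNup153-1 replicate 1 none of the list was called and the median was 0.55. Without its replicate 2, 7 were called higher and 1 lower and the median was 1.06. Of 25 sodium and calcium channel genes 1 was called higher, a share close to that of all genes. The median was 0.74, and 0.27 once the trend with transcript length was removed, 0.34 with none called without shNup153-1 replicate 1 and 1.12 with 3 called without its replicate 2. The gene called with all libraries was Cacng8, a regulatory subunit of AMPA receptors, at 40.5 and 64.9 CPM against 167 and 151, with 75.5 to 97 in shControl between them.

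Several glutamate synapse genes were higher with shNup153-2 as well. Of 44 glutamate receptor and scaffold genes 4 were called higher and none lower (median 0.74), beside 2.81% and 1.67% of all genes, and 39 had a positive log2 fold change, beside 7321 of 14529. Grm4, a presynaptic metabotropic receptor, measured 10.8 and 16 CPM with shNup153-1 and 38.9 and 39.1 with shNup153-2, with 25.5 to 30 in shControl. Dlgap3, a scaffold of the postsynaptic density, measured 101 and 107 against 234 and 274 CPM, and 40.7 to 71.6 in shControl, so both hairpins lay above shControl. Homer2, which links metabotropic receptors to calcium stores, measured 21 and 41 against 117 and 92.3 CPM. Nlgn1, the adhesion protein of excitatory synapses, measured 39.8 and 71.2 against 159 and 150. Of 19 GABA and glycine receptor genes none was called in edgeR, 5 were called higher by DESeq2, and 8 were higher at an unadjusted p under 0.05. Over all 14529 genes those counts were 1171 and 1998. Without shNup153-1 replicate 1 no glutamate gene was called and the median was 0.43, without its replicate 2, 5 were called higher and the median was 1.17, and with the length trend removed the median was 0.49 with 34 positive.

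Presynaptic genes were called in both directions. Of 39 tested, 1 was called higher and 5 lower (median 0.04), beside 2.81% and 1.67% of all genes. Without shNup153-1 replicate 1 these counts were 0 and 1, and without its replicate 2, 2 and 3. Slc17a7, the vesicular glutamate transporter of most cortical neurons, measured 223 and 348 CPM with shNup153-1 and 726 and 838 with shNup153-2 (log2 fold change 1.45 ± 0.29, BH-adjusted p = 0.0342). Slc17a6, the other main vesicular glutamate transporter, went the other way, from 40.7 and 52.7 to 22.6 and 21.1 CPM (-1.1 ± 0.24, BH-adjusted p = 0.0407). In shControl the values were 338 to 496 CPM for Slc17a7 and 74 to 106 for Slc17a6, so for Slc17a7 the hairpins lay on both sides of most shControl libraries, and for Slc17a6 both lay below all of them. Syt5, a calcium sensor of vesicles, measured 159 and 127 CPM with shNup153-1, 24.6 and 26.9 with shNup153-2 and 139 to 167 with shControl (-2.47 ± 0.21, BH-adjusted p = 0.00551). Syt4, a synaptotagmin of dense core vesicles, measured 406 and 339 against 173 and 147 CPM, with 372 to 501 in shControl. For both synaptotagmins shNup153-2 stood below every other basal library. For Vamp1, a vesicle SNARE protein, shNup153-1 stood above every other library, at 127 and 68.1 CPM against 21.8 and 28.7, with 18.4 to 37.4 in shControl. Cplx2, a complexin that holds vesicles ready for release, was called lower as well (784 and 744 against 330 and 370 CPM).

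Several axon guidance genes were higher with shNup153-2. Of 51 tested, 8 were called higher and 1 lower (median 0.64), beside 2.81% and 1.67% of all genes, and 46 had a positive log2 fold change, beside 7321 of 14529. Sema3a, a secreted repellent, measured 23.1 and 30.5 CPM with shNup153-1 and 108 and 98.1 with shNup153-2, with 36.4 to 56.7 in shControl (log2 fold change 1.94 ± 0.27, BH-adjusted p = 0.0117). Unc5d, a netrin receptor, measured 29.6 and 41.1 against 167 and 115 CPM, and 59.2 to 113 in shControl. For both genes the shControl libraries lay between the hairpins. Slit3, a ligand of Robo receptors, measured 5.38 and 12.9 CPM against 42.3 and 42.1, and its paralog Slit1 29.4 and 47.3 against 91.4 and 86.3. In shControl they measured 29.2 to 57.1 and 75.8 to 96.8, which overlaps shNup153-2 in both genes and lies above shNup153-1. Unc5a, another netrin receptor, was the 1 called lower (62.9 and 71.8 against 30.4 and 23.3 CPM). Without shNup153-1 replicate 1 none of the guidance list was called (median 0.45), and without its replicate 2, 7 were called higher (median 1.03). With the length trend removed the median was 0.37 with 40 positive.

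**Figure D3:**
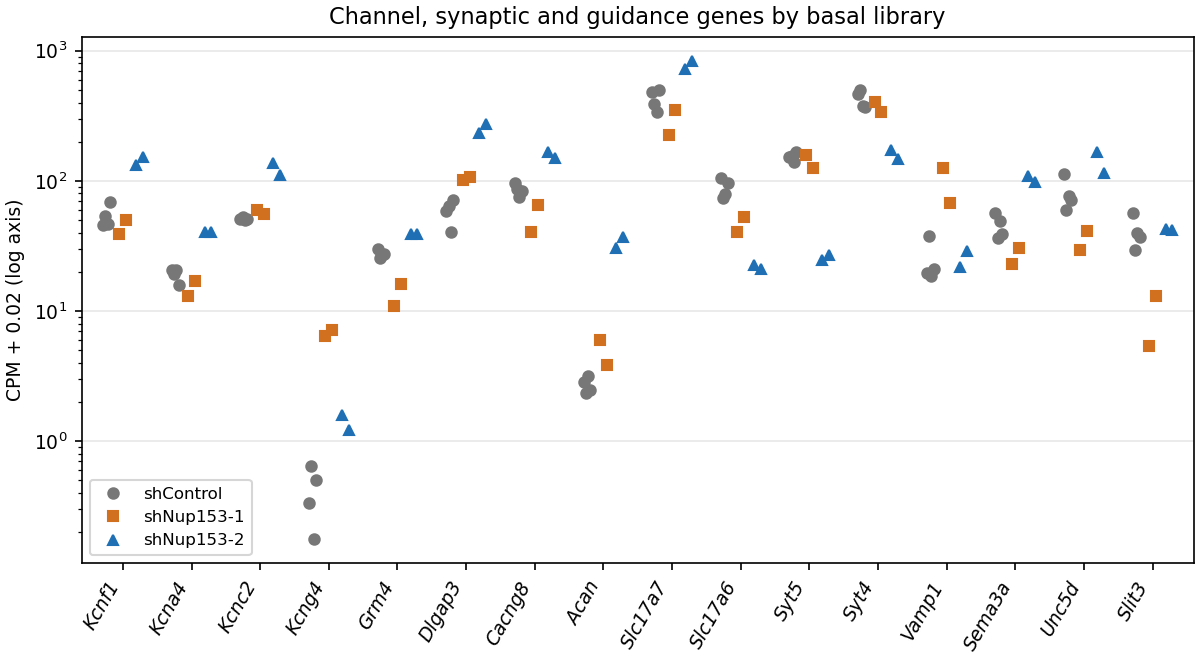
CPM plus 0.02 on a log axis for 16 channel, synaptic and guidance genes in the 8 basal libraries, 1 symbol a library. Both shNup153-2 libraries lie below all others for Syt5 and above all others for Acan, and both shNup153-1 libraries lie below all others for Slit3.

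Among activity-regulated genes 1 was called. Acan, the core protein of perineuronal nets, measured 5.99 and 3.84 CPM with shNup153-1 and 30.5 and 37 with shNup153-2, above the 2.3 to 3.17 of shControl (log2 fold change 2.78 ± 0.3, BH-adjusted p = 0.00798). It was the 1 called of 29 late activity-regulated genes and of 25 matrix genes (medians 0.33 and 0.4), shares below or near that of all genes. DESeq2 called 5 late genes higher, and 3 matrix genes higher and 1 lower, beside 1171 higher and 943 lower of all 14529 genes. The late median was 0.1 without shNup153-2 replicate 2 and 0.52 without its replicate 1, and the matrix median 0.15 with the length trend removed and 0.63 without shNup153-1 replicate 2. Of 29 immediate early genes none was called in edgeR, and 4 were called higher and 3 lower by DESeq2. At an unadjusted p under 0.05, 5 were higher and 6 lower, beside 1998 and 1749 of all 14529 genes. The immediate early median was -0.11, and changed sign with the shNup153-1 library left out (0.25 without replicate 1, -0.49 without replicate 2).

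Few genes of the nuclear pore and of transport differed. Of 27 nucleoporin genes 1 was called, Nup43 of the outer ring complex, at 9.59 and 5.18 CPM with shNup153-1 and 2.22 and 2.01 with shNup153-2 (log2 fold change -1.8 ± 0.41, BH-adjusted p = 0.0456, median of the list 0.1). Of 30 transport factors 2 were called higher, the importins Kpna1 and Ipo7. Kpna1 measured 51.6 and 58.7 CPM against 166 and 158, with 185 to 302 in shControl (1.55 ± 0.27, BH-adjusted p = 0.0204), so both hairpins lay below shControl and shNup153-1 lay lowest. Ipo7 measured 129 and 146 CPM against 341 and 281, and the 190 to 260 of shControl lay between. Of 29 genes of class I histone deacetylases and corepressors, Gatad2a of the NuRD complex was called higher (20.7 and 20.15 against 38.1 and 41.1 CPM) and Sap18 of the Sin3 complex lower (57.5 and 44.4 against 20.7 and 20.8). Ago1, which carries small RNAs, was the 1 called of 17 small RNA pathway genes, at 53.7 and 81.1 CPM against 195 and 147. The called shares of the nucleoporin, transport, deacetylase and small RNA lists were 3.7, 6.67, 6.9 and 5.88%, near the 4.48% of all genes. Without shNup153-1 replicate 1 none of these 4 lists had a called member, and limma-voom called no nucleoporin gene. With the length trend removed the medians of the nucleoporin and transport lists were -0.02 and -0.06.

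Metabolic lists gave few calls. Of 25 cholesterol genes 2 were called higher and none lower (median 0.22), beside 2.81% and 1.67% of all genes. None was called without either shNup153-1 library, with medians of 0.58 without replicate 1 and 0.1 without replicate 2. Hsd17b7, an enzyme of the late pathway, was among them, at 7.81 and 11.3 CPM against 37.5 and 38.3, and the 47.3 to 119 of shControl lay above every hairpin library. Of 49 respiratory chain genes none was called in edgeR, and 3 had a positive log2 fold change, beside 7321 of 14529. DESeq2 called 4 lower, beside 943 of all 14529 genes. At an unadjusted p under 0.05, 10 were lower and none higher, beside 1749 and 1998 of all genes. The median of the chain list was -0.79 with all libraries, -0.25 without shNup153-1 replicate 1, -1.13 without its replicate 2 and -0.42 with the length trend removed. The summed level of the chain was 14392 and 7964 CPM in the 2 shNup153-1 libraries, 7175 and 7339 with shNup153-2 and 6861 to 14423 with shControl, so replicate 2 of shNup153-1 lay near shNup153-2 and replicate 1 near the highest shControl library. Of 26 glycolysis and hypoxia genes none was called in edgeR (median 1). DESeq2 called 7 of them higher, beside 1171 of all 14529 genes. At an unadjusted p under 0.05, 11 were higher and 1 lower. Hk2, hexokinase 2, measured 1.36 and 1.37 CPM with shNup153-1, 54.5 and 39.1 with shNup153-2, and 1.21 to 200 with shControl.

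**Figure D4:**
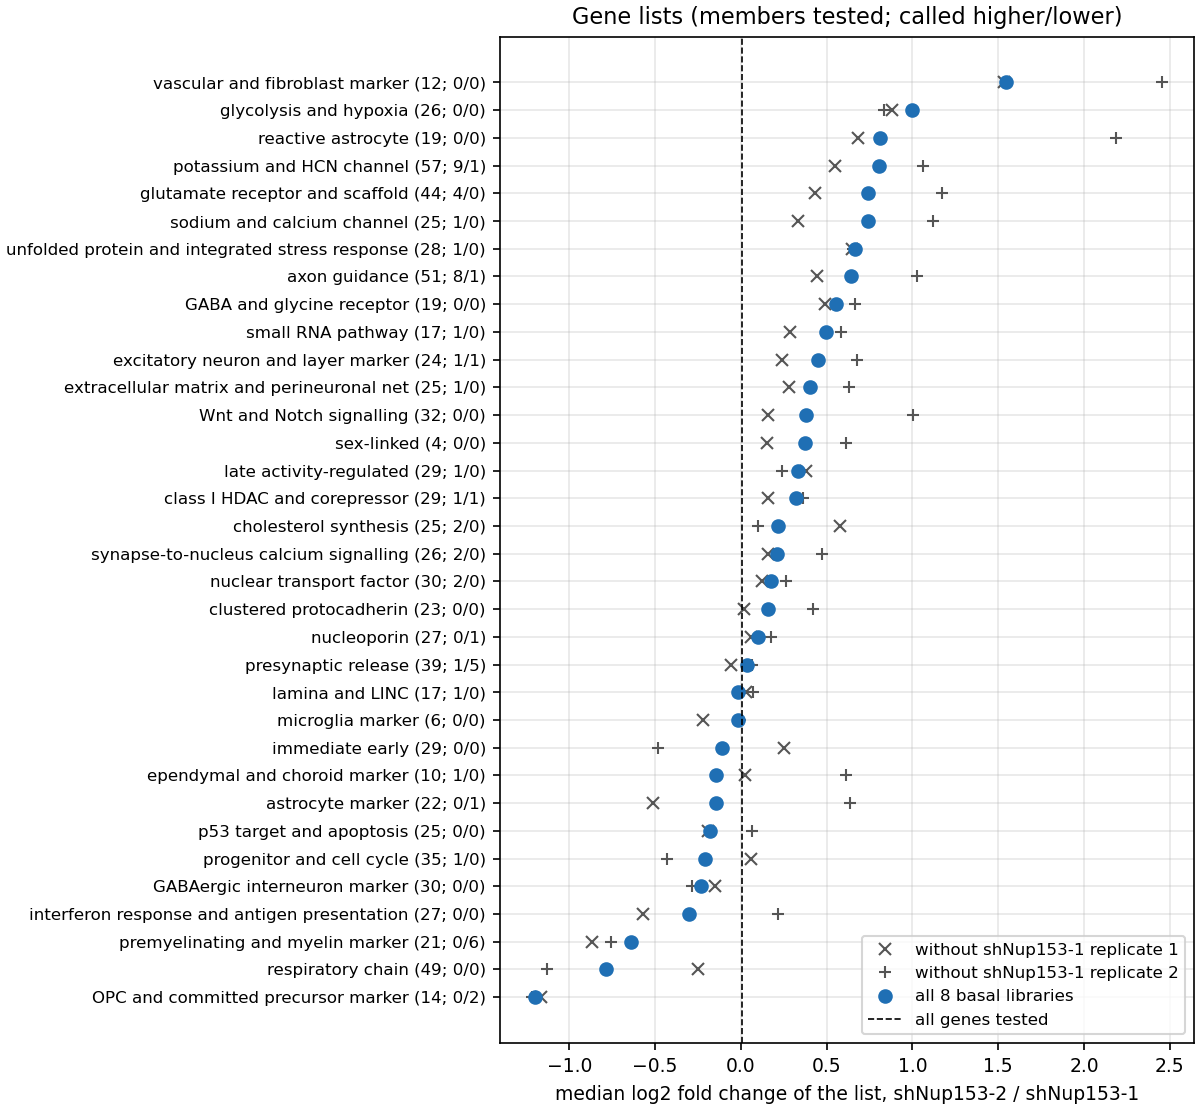
Median log2 fold change of shNup153-2 over shNup153-1 for each of the 34 gene lists, with all 8 basal libraries (circles) and without either shNup153-1 library (crosses), beside the median of all genes tested (dashed line). Numbers in brackets are members tested and members called higher and lower, and the precursor list lies lowest, at -1.2.

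The 12 largest rises were in genes of varied roles. Scarf2, a scavenger receptor, measured 0.265 and 0.749 CPM with shNup153-1 and 13 and 8.3 with shNup153-2, with 0.475 to 3.07 in shControl (log2 fold change 4.36 ± 0.91, BH-adjusted p = 0.0363). Pgm2l1, which makes glucose 1,6-bisphosphate in brain (GRCm38, chr7:100227394-100278868), was the most abundant of them, at 61.4 and 106 CPM against 957 and 632 and with 257 to 527 in shControl (3.25 ± 0.42, BH-adjusted p = 0.0108). Colq, the collagen tail of acetylcholinesterase, measured 0.341 and 0.218 CPM against 2.66 and 2.94, with at most 0.202 in shControl. The secreted signals Dhh and Wnt10b were lowest in both shNup153-1 libraries: Dhh at 0.0758 and 0.187 CPM against 2.08 and 2.09, with 0.914 to 2.13 in shControl, and Wnt10b at 0.303 and 0.312 against 3.9 and 3.85, with 1.13 to 4.16. Mei4 had 0 and 9 counts against 90 and 100, and Angpt2 0 and 3 counts against 37 and 43, a ratio of 19.4 (95% exact interval 6.41 to 96.2). Arsj, Ndst4, Pik3r5, Gja6 and Dgkk had log2 fold changes of 3.04, 2.96, 2.96, 2.92 and 2.86.

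Many called genes shared a 7-base sequence in the 3′ UTR, a different one in each direction. The first, TGGCTTT, was 1 of 2 that had come up in earlier work on these libraries. The other was counted here too and was not more common among called genes in this way. It stood in 6 of 397 searched genes called higher (1.51%), 5 of 238 called lower (2.1%) and 196 of 13644 in all (1.44%). By median log2 fold change of its holders TGGCTTT ranked 2 of 9265 sequences of 7 bases (0.32), behind GGCTTTA (0.43), which overlaps it by 6 bases. The second, ATAGCTT, was picked here because holders of it had the lowest median log2 fold change of 9265 sequences of 7 bases (-0.01, close to that of all genes), after its values were seen, so the shares of both in this comparison are a description. Both were searched on the transcript strand of the longest annotated 3′ UTR of each gene (GENCODE vM21, GRCm38). TGGCTTT stood in 227 of 397 searched genes called higher (57.2%), 25 of 238 called lower (10.5%) and 3198 of 13644 in all (23.4%). ATAGCTT stood in 83 of 238 called lower (34.9%), 33 of 397 called higher (8.31%) and 1386 in all (10.2%). Of the 25 genes with the smallest p in each direction, 19 of the higher held TGGCTTT and 15 of the lower held ATAGCTT. The sequences share the run GCTT but no longer one. Whether either pairs with the guide strand of a hairpin was not tested, since the sources used here do not state them.

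Sites from genes on which these counts turn are shown with 8 bases on each side where the transcript allows, 5′ to 3′ on the transcript strand, with the shared 7 bases in capitals. The TGGCTTT sites are from genes called higher with shNup153-2, and from Nup153 itself, the intended target of both hairpins, which was not called. The ATAGCTT sites are from genes called lower. Pgm2l1 is shown with 1 of its 3 sites, Actr2 with 1 of 4 and Enpp6 with 1 of 2.
Kpna1 chr16:36034395-36034417, plus strand: gtacctggTGGCTTTttctagcc
Kpna1 chr16:36034636-36034658, plus strand: agtttgtaTGGCTTTtgcttctc
Kpna1 chr16:36036596-36036618, plus strand: gggcaaagTGGCTTTgttgtttt
Pgm2l1 chr7:100273253-100273275, plus strand: actcctcaTGGCTTTattcttgt
Tm9sf3 chr19:41210958-41210980, minus strand: attccagtTGGCTTTttagtaat
Actr2 chr11:20062862-20062884, minus strand: tttgaccaTGGCTTTaaacaaag
Nup153 chr13:46680841-46680863, minus strand: acggtgaaTGGCTTTgtatagaa
Nup153 chr13:46680288-46680310, minus strand: gaatttatTGGCTTTtctgatcc
Grsf1 chr5:88660023-88660045, minus strand: ttggtcaaATAGCTTttcatttt
Grsf1 chr5:88659738-88659760, minus strand: ggacattaATAGCTTcacttgaa
Grsf1 chr5:88659527-88659549, minus strand: aatactaaATAGCTTgttattta
Syt5 chr7:4539765-4539782, minus strand: aatactcaATAGCTTaga
Scg3 chr9:75643765-75643787, minus strand: aaaacaatATAGCTTacaaacta
Enpp6 chr8:47093275-47093297, plus strand: atggaataATAGCTTtattaaca

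Of the 8 genes of smallest p that hold TGGCTTT, 7 were lower in both shNup153-1 libraries than in any shControl library. Tm9sf3, a protein of the secretory pathway with 1 copy, measured 37.3 and 40.4 CPM with shNup153-1 and 258 and 268 with shNup153-2, with 244 to 293 in shControl. Actr2, a subunit of the actin-branching Arp2/3 complex with 4 copies, measured 68.5 and 80.4 CPM against 456 and 443, with 368 to 510 in shControl. G3bp2, a stress granule protein with 4 copies, measured 66.5 and 68.2 against 348 and 282, with 308 to 432.5. In 159 of the 227 called holders shControl lay nearer to shNup153-2, beside 259 of all 408 genes called higher. Some of the 8 lay above every shControl library with shNup153-2: Enpp4 at 34.5 and 35.8 CPM, with 16.6 to 21.1 in shControl, Cd164 at 89.97 and 102, with 58.9 to 80.9, Sec61a1 at 153 and 178, with 128.5 to 142, and Vopp1 at 212.8 in both, with 153 to 198. Cd276 did so too and was the 1 of the 8 not below shControl with shNup153-1, with 15.1 and 19 CPM for shNup153-1, 12.1 to 18.1 for shControl and 79 and 77.3 for shNup153-2.

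Of the 8 genes of smallest p that hold ATAGCTT, 7 (all but Enpp6) were low with shNup153-2 and, with shNup153-1, from somewhat below to somewhat above the shControl libraries. Grsf1, an RNA-binding protein of mitochondria with 3 copies, measured 112 and 92.9 CPM with shNup153-1, 15.3 and 13.1 with shNup153-2 and 90.1 to 109 with shControl (log2 fold change -2.85, BH-adjusted p = 0.00293). Scg3, a secretogranin of dense core vesicles, measured 217 and 177 CPM against 32.55 and 38.6, with 153 to 239 in shControl. Vti1a, a SNARE protein, measured 46 and 50.2 against 12.7 and 14.8, with 35.9 to 40.2. Fundc1, a mitochondrial outer membrane protein, measured 45.1 and 45.4 against 10.2 and 13.25, with 33.1 to 38.3. In 60 of the 83 called holders shControl lay nearer to shNup153-1, beside 137 of all 243 genes called lower. Enpp6 differed from these in being near 0 with shControl.

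With more copies of TGGCTTT the median log2 fold change of shNup153-2 over shNup153-1 was higher: -0.08 in 10446 genes with none, 0.25 in 2431 with 1, 0.44 in 553 with 2 and 0.73 in 214 with 3 or more. Genes with more copies also had longer 3′ UTRs (median 934, 2238, 3141 and 4644 bases), and the median log2 fold change was higher with longer UTRs too. Within each of 5 ranges of UTR length the holders had the higher median, at 0.07 against -0.25 under 500 bases and at 0.44 against 0.28 above 4000. For ATAGCTT the medians by copies did not fall (0.01, -0.02, 0.04 and 0.15 for 0, 1, 2 and 3 or more), while within each range of length the holders had the lower median (-0.53 against -0.23 under 500 bases, and 0.28 against 0.45 above 4000). Differences between single shControl libraries moved with copies as well: genes with 3 or more copies of TGGCTTT had median deviations of 0.41, -0.32, 0.14 and -0.29 in the 4 shControl libraries, against -0.73 and -0.27 with shNup153-1 and 0.26 and 0.14 with shNup153-2. Only shNup153-1 replicate 1 lay outside the range of shControl for that sequence.

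The silenced libraries took no part in picking ATAGCTT. There, the median of holders minus that of other genes was -0.185, -0.183 and -0.275 (log2) with shNup153-2 and 0.0968, -0.07 and -0.0282 with shControl, and the groups did not overlap. No other sequence was compared in this way apart from TGGCTTT, and UTR length, which is longer in holders (median 2602 bases with 1 copy against 1074 with none), was not matched. The same value for TGGCTTT was 0.0131, -0.0321 and -0.0583 against 0.0854, -0.0802 and 0.0034, with overlap. An exact permutation test gave p = 0.1 for ATAGCTT, the smallest that 3 against 3 libraries allow, and 0.7 for TGGCTTT. In the basal libraries ATAGCTT holders had median deviations from shControl of -0.0541 and -0.104 with shNup153-2 and -0.231 and 0.0485 with shNup153-1. The basal shControl libraries, at 0.277, -0.234, 0.122 and -0.143, spanned all of these. These basal values are for holders alone, unlike the silenced ones, from which the median of other genes was taken off. That median was -0.011 in basal shNup153-1 replicate 1 and -0.027 in basal shControl replicate 2. The spanning is therefore stated for holders alone. Of the 83 ATAGCTT holders called lower at basal state, 74 were lower with shNup153-2 than with shControl in silenced cultures (median -0.71, against 0.02 over all 13644 searched genes). Of all searched genes, 6475 were lower there, and of the 155 called lower without the sequence, 118 were (median -0.22). Syt5 measured 39.3, 43.9 and 43.7 CPM with shNup153-2 in silenced cultures against 153, 171 and 154 with shControl, and Grsf1 21.9, 24.3 and 18.8 against 108, 93.1 and 99.6. Both genes were lower with shNup153-2 in every silenced library, as in the basal ones. Acan, by contrast, measured 2.48, 1.92 and 5.49 CPM with shNup153-2 and 2.01, 2.54 and 1.91 with shControl, and the silenced groups overlapped.

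**Figure D5:**
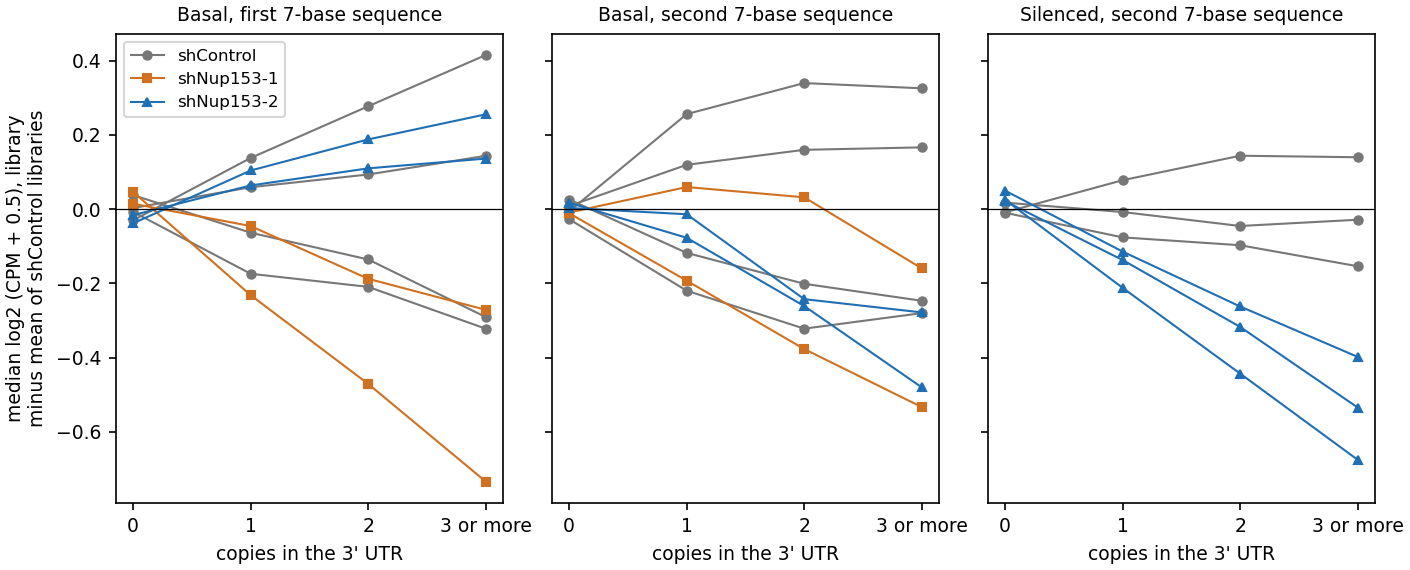
Median deviation of each library from the mean of the shControl libraries (for a shControl library, of the other shControl libraries), in log2 of CPM plus 0.5, for genes with 0, 1, 2 and 3 or more copies of TGGCTTT (first, left) and ATAGCTT (second, middle and right). In silenced cultures the 3 shNup153-2 libraries lie below the 3 shControl libraries at 1 copy and more of ATAGCTT, while basal shControl libraries spread on both sides of 0 for both sequences.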

How the data were processed

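Poly(A) RNA of primary cortical cultures was sequenced from stranded, paired-end libraries, per the labels' protocols. The authors deposited whole-number read counts per gene symbol. featureCounts 2.0.1, FastQC and the build mm10 are named in the submitters' processing notes, and the sources used here do not state the aligner, annotation or strand setting. Groups were taken from sample titles, since descriptions of the knockdown samples name the control virus. Of the basal table's 26371 lines, 16399 were used, because the shNup153-1 columns shift below them. Library totals used all lines, and 2 columns that share a name were not used.

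Counts of 8 basal libraries (4 shControl, 2 shNup153-1, 2 shNup153-2) were fitted with edgeR 4.0.16 (R 4.3.3): filterByExpr with a minimum count of 10, TMM scaling, quasi-likelihood test, and a Benjamini-Hochberg (BH) threshold of 0.05. Standard errors came from the fold change and its F. Alternatives used DESeq2 1.42.0, limma 3.58.1 (voom), other filters and scaling, a replicate block, and leaving out each library. The fit was also run on simulated counts, drawn independently for each gene with the spread estimated from these libraries. Such counts hold no differences shared by many genes of a library, so they cannot give the error rate of the calls. Ratios of low counts carry exact 95% intervals for counting error only.

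Named genes were Nup153, Hdac1, the 12 largest called changes in each direction with separate libraries, whose higher hairpin averaged 1 CPM or more, predicted genes aside, and up to 4 called members of smallest p per list. Other genes, such as Sox10, Olig1, Olig2, Mbp, Gfap, Hk2, Cplx2, Unc5a and further called channel genes, were added after their values were seen. The members and the 34 lists were chosen with earlier results of these data known. Sequences of 7 bases were counted in the longest 3′ UTR (at least 30 bases) of GENCODE vM21 transcripts and ranked where at least 1000 genes held them. Some named genes are not reported here.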

Additional observations from a re-analysis of the deposited data

Results flagged for a closer look

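In the 4 basal shControl libraries, 75 genes were checked for a library far from the other 3, and 3 were found. Chance flags about 1 in 20 groups of continuous values, a rate that need not hold where counts are few. Gpr17 measured 0.16 CPM in shControl replicate 4 and 0 in the other 3, and with 3 values at 0 any other value is flagged. Plxnb3 measured 0.192 CPM in the same library, against at most 0.031 in the others. The 4 libraries held 5 counts of Gpr17 and 7 of Plxnb3 in all, so these 2 flags rest on a few reads. Vamp1 measured 37.4 CPM in shControl replicate 2, against 18.4 to 21.1 in the others. In Gpr17 and Plxnb3 that library stayed far below both shNup153-1 libraries, and in Vamp1 it lay below both of them and above both shNup153-2 libraries.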

How the results depend on the processing

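No direction reversed among the genes followed, but their hairpin libraries did not overlap, so leaving a library out could hardly reverse one. The count of called genes (651, 408 higher and 243 lower in edgeR) moved to 2114 (1171 and 943) with DESeq2, to 1161 (650 and 511) with the trend with transcript length removed and to 6665 (3543 and 3122) with all lines as deposited, where the displaced lines compare different genes. For DESeq2, the length trend and the block the cause was not tested. With fewer libraries the count ran from 0 to 998 (higher 0 to 593, lower 0 to 405). It was 998 without shControl replicate 2, 381 without replicate 3 and 252 without replicate 4, 4 without shNup153-1 replicate 1, and 0 without shNup153-2 replicate 1 or 2. With the replicate number as a block it was 0, with 1939 genes at an unadjusted p under 0.05. Same-numbered libraries of the hairpins had residuals that correlated by -0.001, so the number is not known to pair them. Nup153 passed the threshold with the length trend removed (log2 fold change -1.03, BH-adjusted p = 0.0414), and ran from -1.17 to -0.44 with a library left out. With 2 libraries a hairpin, and 1 where a library is left out, a lone library is assumed to vary like the others. Depth limits Mag, Angpt2 and other genes with a few counts in 1 group to wide intervals. The share of called genes with TGGCTTT (higher) ran from 47.1 to 64.8% and with ATAGCTT (lower) from 19.8 to 43.1% over the fits with at least 20 called genes. The median of ATAGCTT holders minus that of other genes was -0.02, and it changed sign without shNup153-1 replicate 2 (0.13) and without shNup153-2 replicate 2 (0.03). For TGGCTTT that value was 0.39, and 0.26 with the length trend removed.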

Other observations

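Single genes of other lists were also called by edgeR (4.48% of all genes were). With all libraries in the fit, Pdia6, a protein disulfide isomerase of the endoplasmic reticulum, was the 1 called of 28 genes of the unfolded protein and integrated stress response (log2 fold change 1.51, list median 0.67, which was 0.07 without shNup153-2 replicate 2 and 1.01 without its replicate 1). Mef2a, an activity-regulated transcription factor, and Rcan2, an inhibitor of calcineurin, were the 2 called higher of 26 genes of calcium signalling to the nucleus (1.14 and 1.08, list median 0.21, and with 13 of 26 positive once the length trend was removed). Rad21, a cohesin subunit, was the 1 called of 17 lamina and nuclear envelope genes (1.12, list median -0.02). Ccne2, a cyclin of S phase entry, was the 1 called of 35 progenitor and cell cycle genes (1.68, list median -0.21, and 0.06 without shNup153-1 replicate 1), and Kl the 1 called of 10 ependymal and choroid markers (2.47, list median -0.14, and 0.02 and 0.61 without shNup153-1 replicate 1 and 2). Without shNup153-1 replicate 1 none of these 5 lists had a called member, and without its replicate 2 the progenitor list alone had 1.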
